A study of Homo sapiens with 3 samples.

Results

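The peroxiredoxins and the thioredoxin system were described here by 10 genes: the peroxiredoxins PRDX1, PRDX2, PRDX3, PRDX4, PRDX5 and PRDX6, thioredoxin (TXN), cytosolic thioredoxin reductase (TXNRD1), sulfiredoxin (SRXN1) and glutaredoxin (GLRX). They were chosen by name, as the transcript records whose gene symbol is one of these, and the record with the largest total over the libraries gave the gene's count. All 10 were found, among 22825 genes in all. RNA was measured by paired 100 bp sequencing in MDA-MB-231, an established human breast cancer cell line that carries the p53 missense allele R280K per the labels. The 3 libraries belong to 1 group: cells that received 50 nM control siRNA in 2 transfections separated by 24 h, and that were collected 48 h later. The labels call them biological replicates, and the study's title concerns p53 missense mutants and the proteasome. Other arms are not analysed here, so no comparison of conditions was made. What follows is the level of each gene in a mutant p53 line after control siRNA, how far 3 cultures of it differed, and what the transcript records show.

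Peroxiredoxins reduce hydrogen peroxide with a reactive cysteine, called the peroxidatic cysteine. In most of them the resulting disulfide is reduced by thioredoxin, which thioredoxin reductase, a selenoprotein, restores with electrons from NADPH. When the peroxidatic cysteine is oxidised too far, sulfiredoxin can repair it in PRDX1 to PRDX4, and glutaredoxin reduces disulfides between proteins and glutathione. PRDX1 and PRDX2 are mainly cytosolic, PRDX3 mitochondrial, PRDX4 in the endoplasmic reticulum, PRDX5 in several compartments, and PRDX6 is the member with a single catalytic cysteine.

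The coding sequence around the peroxidatic cysteine is shown for the 6 peroxiredoxins because it holds the residue by which they act and lets the members be compared. Each run holds 45 bases of the coding strand, 5′ to 3′, from the GENCODE transcripts on GRCh38, with the cysteine codon in capitals.
PRDX1, codon 52, chr1:45515737-45515781, minus strand: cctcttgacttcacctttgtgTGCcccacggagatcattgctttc
PRDX2, codon 51, chr19:12800999-12801043, minus strand: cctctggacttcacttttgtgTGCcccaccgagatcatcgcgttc
PRDX3, codon 108, chr10:119173839-119174461, minus strand, across an intron: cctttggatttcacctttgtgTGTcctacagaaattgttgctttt
PRDX4, codon 124, chrX:23671636-23675023, plus strand, across an intron: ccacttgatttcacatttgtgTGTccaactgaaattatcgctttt
PRDX5, codon 100, chr11:64319839-64320675, plus strand, across an intron: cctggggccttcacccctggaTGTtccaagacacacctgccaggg
PRDX6, codon 47, chr1:173481348-173481392, plus strand: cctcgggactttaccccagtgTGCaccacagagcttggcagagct

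PRDX1 and PRDX2 were the most alike over these bases, with 40 of 45 identical. PRDX3 and PRDX4 shared 37 of 45, and pairs of PRDX1 or PRDX2 with PRDX3 or PRDX4 shared 33 to 35. PRDX5 shared 18 to 23 with the others, and PRDX6 shared 23 to 27. Over whole transcripts, the longest run of identical bases between any of the 45 pairs of the 10 genes was 17 bases (PRDX1 and PRDX4). No window of 100 bases, the read length, was shared by members, so a full-length exact read of one could not be assigned to another.

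Other genes did share sequence with 3 members. PRDX1 shared 282 of 1135 windows (24.8%) with MMACHC, a gene of cobalamin metabolism on the opposite strand, and PRDX2 shared 102 of 888 (11.5%) with the antisense gene AC018761.2. SRXN1 shared 2195 of 2599 (84.5%) with AL121758.1, an annotated gene on its own strand. The counting's use of strand is not given in the sources used here. For PRDX1 and PRDX2 the sources of reads in these stretches thus cannot be told apart. For SRXN1 no strand setting could separate them, since both genes lie on the same strand. MMACHC held 849, 1104 and 649 counts in replicates 1, 2 and 3, which was 2.97%, 3.07% and 2.81% of the PRDX1 count. In addition, 8 members had 19 processed pseudogene copies of 85.1% to 95.0% identity, such as PRDX1P1 (93.5% over 600 bases), GLRXP3 (95.0% over 321) and TXNP4 (93.6% over 312), and none of these held a whole window of a member.

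Peroxiredoxin mRNA was abundant. Levels are given as TPM, that is counts divided by transcript length and scaled to the same total in each library, so that genes can be compared. The gene totals behind them were 68670363, 84888346 and 54517311 counts. In bulk RNA, fewer cells with a transcript and less of it per cell cannot be told apart. PRDX1 had 808, 814 and 827 TPM in replicates 1, 2 and 3 (816 ± 9.75, SD, n = 3), on 28584, 35979 and 23128 counts. It was place 157 of the 18528 genes with a count and a length, and 90.4 times the median of such genes (9.03 TPM).

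PRDX2 had 506, 506 and 468 TPM (493 ± 21.9), with replicates 1 and 2 level and replicate 3 below both. PRDX3, the mitochondrial member, had 424, 421 and 438 TPM (427 ± 9.13), replicate 3 being the highest. PRDX6 had 291, 291 and 301 TPM (294 ± 5.98), again highest in replicate 3. These 3 genes stood at places 282, 339 and 538.

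PRDX5 had 272, 284 and 259 TPM (272 ± 12.5, place 595), highest in replicate 2 and lowest in replicate 3. PRDX4, which acts in the secretory pathway, was the lowest peroxiredoxin with 131, 127 and 128 TPM (129 ± 2.37, place 1434), highest in replicate 1. The 6 peroxiredoxins summed to 2433, 2443 and 2422 TPM (2433 ± 10.5). PRDX1 made up 33.6% ± 0.517 of that sum, PRDX2 20.3% ± 0.826, PRDX3 17.6% ± 0.448, PRDX6 12.1% ± 0.294, PRDX5 11.2% ± 0.467 and PRDX4 5.29% ± 0.103 (SD, n = 3 each).

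TXN was the highest of the 10 genes. It lies on the minus strand of GRCh38 at chr9:110243811-110256640 in 5 exons. Its active site is a pair of cysteines, whose codons and the 2 between them are in capitals in the second exon, chr9:110251358-110251462:
TXN exon 2: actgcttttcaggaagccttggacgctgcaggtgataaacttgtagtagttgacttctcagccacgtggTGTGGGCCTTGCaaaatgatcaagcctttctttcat

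TXN had 856, 910 and 894 TPM in the 3 replicates (886 ± 27.8, place 149, 98.2 times the median gene), on 21307, 28335 and 17595 counts. Replicate 1 was the lowest and replicate 2 the highest. TXN exceeded PRDX1 in 3 of 3 libraries, by 1.09 ± 0.0303 times.

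TXNRD1 reduces thioredoxin in the cytosol and lies at chr12:104215779-104350305, plus strand, in 15 exons. Its catalytic selenocysteine, encoded by the TGA in capitals, stands just before the end of the coding sequence, chr12:104348392-104348421:
TXNRD1 coding end: agcatcctccaggctggctgcTGAggttaa

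TXNRD1 had 188, 192 and 198 TPM (193 ± 5.31, place 904), lowest in replicate 1 and highest in replicate 3. TXN stood 4.60 ± 0.125 times above TXNRD1 by TPM, a ratio that rests on the transcript lengths used. The SD covers only the spread between libraries. Per library total alone, with no division by length, the ratio was 1.01 ± 0.0274, because the TXNRD1 transcript has 3974 bases and that of TXN 869.

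SRXN1, at chr20:646615-653370 on the minus strand, had 34.3, 34.5 and 34.4 TPM (34.4 ± 0.0628, place 4928). By TPM its 3 libraries lay closest together of all members. With PRDX1 at 23.7 ± 0.261 times its level, SRXN1 was the lowest member, though still 3.81 times the median gene. GLRX, at chr5:95751319-95823005 on the minus strand, had 39.6, 45.2 and 43.7 TPM (42.8 ± 2.90, place 4194). Replicate 1 was the lowest of its libraries and replicate 2 the highest, and TXN stood 20.7 ± 0.781 times above it.

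**Figure D1:**
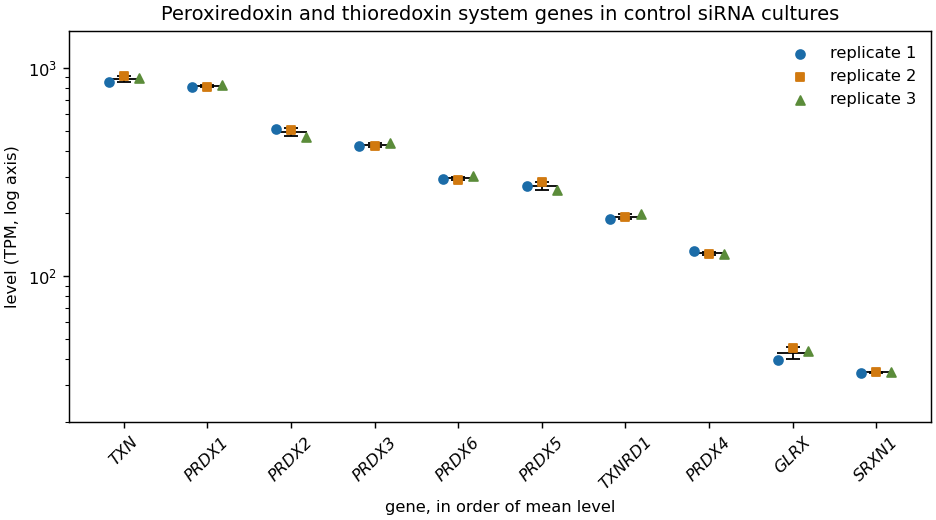
Level of each of the 10 genes (TPM, log axis) in the 3 control siRNA libraries, in order of mean level; points are libraries, the horizontal line is the mean and the error bar the SD (n = 3). TXN and PRDX1 stand at the top with means of 886 and 816 TPM, and GLRX and SRXN1 stand apart at the bottom with 42.8 and 34.4 TPM.

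The order by TPM was TXN, PRDX1, PRDX2, PRDX3, PRDX6, PRDX5, TXNRD1, PRDX4, GLRX and SRXN1, and the libraries of none of the 9 neighbouring pairs overlapped. Relative to its spread the narrowest of the 9 steps was that from PRDX6 to PRDX5, 22.4 TPM against a combined SD of 13.9, and the smallest in TPM was that from GLRX to SRXN1, 8.41 against 2.90. Several places rest on the length used and on how records were joined. With CPM, counts scaled by the library total with no division by length, PRDX1 led with 421 against 322 for TXN, TXNRD1 moved from place 7 to place 3, and SRXN1 (38.8) passed GLRX (24.5). With the gene's longest annotated transcript, PRDX3 and PRDX6 passed PRDX2, and SRXN1 (42.7 TPM) passed GLRX (21.3 TPM). With a length shortened by 200 bases, PRDX5 passed PRDX6. Summing a gene's records in place of taking the largest raised genes with many records relative to those with 1. The lowest of the 4 PRDX1 records held 93.8% of the largest, so such a sum largely repeats the same reads. PRDX1 then led with 1668 TPM against 819 for TXN, and TXNRD1 (489) moved to place 3, with PRDX3 (433) and PRDX5 (333) at places 4 and 6. PRDX2 (373) moved to place 5, PRDX6 (153) to place 7, GLRX (87.7) passed PRDX4 (66.9), and SRXN1 stayed lowest with 17.9.

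Each culture was then asked whether it held the same share of each mRNA beyond counting noise. The test was edgeR's deviance against a single mean, with p-values from a chi-square distribution and Benjamini-Hochberg adjustment over all 14469 genes past the count filter. The p-values measure only the spread between these 3 samples. Of the 10 members 5 passed at 0.05, beside 28.5% of all genes tested. High counts make small differences detectable, and among the 7070 genes at or above the level of the lowest member 47.9% passed, close to the share of the members. The median range from the lowest to the highest library, as a percent of the lowest, was 4.22% for members. It was 8.11% for those 7070 genes and 11.3% for all genes tested. The 7070 genes were bounded only from below, at the lowest member, so the ranges were not compared at like counts. In 6 members the range was under 5%. The test took a read pair as 1 observation, and with each mate counted as its own 52.9% of all genes passed and the members' count was again 5.

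GLRX had the widest range, 15.2%, with 22.6, 26.1 and 24.7 CPM after scaling by trimmed means (TMM) in replicates 1, 2 and 3 (edgeR adjusted p = 0.0381). Replicate 1 was the low library. PRDX5 had 102, 107 and 95.8 CPM, a range of 12.1% (edgeR adjusted p = 0.000165), and PRDX2 had 209, 211 and 191 CPM, a range of 10.5% (edgeR adjusted p = 1.96e-07). In both peroxiredoxins replicate 3 was the lowest.

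TXN had 311, 334 and 321 CPM, a range of 7.31% (edgeR adjusted p = 3.19e-06), and TXNRD1 had 313, 322 and 326 CPM, a range of 4.28% (edgeR adjusted p = 0.0326). Replicate 1 was the lowest in both. The 5 other members did not pass, with edgeR adjusted p from 0.519 to 0.906. PRDX1 had a range of 1.57%, PRDX3 of 2.06%, PRDX6 of 2.21%, SRXN1 of 2.27% and PRDX4 of 4.17%. A spread of 5% (coefficient of variation) between cultures, if allowed for, ended all 5 calls.

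**Figure D2:**
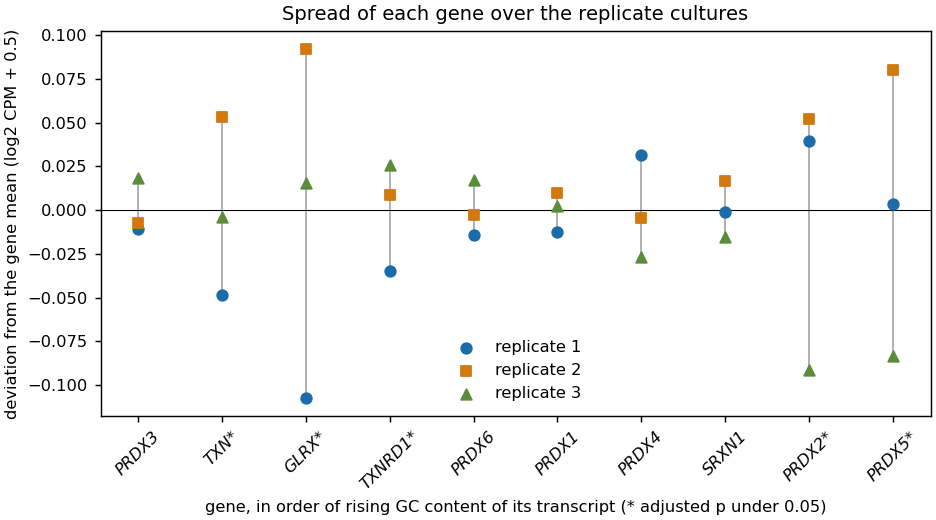
Deviation of each library from the gene's mean (log2 of CPM + 0.5) for the 10 genes, placed in order of the GC content of their transcripts; an asterisk marks an adjusted p under 0.05. PRDX2 and PRDX5, at the right, are lowest in replicate 3 (-0.09 and -0.08), and GLRX and TXN, at the left, are lowest in replicate 1 (-0.11 and -0.05).

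The GC content of the transcript moved with some of these differences. Over all genes tested, replicate 3 was lower the more GC-rich the transcript, and replicates 1 and 2 were higher. The GC-richest members were PRDX5 (61.5%) and PRDX2 (58.6%). In replicate 3 PRDX5 deviated by -0.08 (log2) where the trend of all genes at its GC content stood at -0.08, and PRDX2 deviated by -0.09 where the trend stood at -0.06. TXN (42.8%) departed from the trend in sign in replicates 2 and 3 and not in replicate 1: it deviated by -0.05, 0.05 and -0.00 in replicates 1, 2 and 3, against trend values of -0.03, -0.02 and 0.04. GLRX (43.9%) departed in sign in replicate 2: it deviated by -0.11, 0.09 and 0.02, against trend values of -0.02, -0.01 and 0.04.

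With the trend taken out, 14.4% of all genes passed, 24.5% of those at or above the lowest member's level, and 2 members: TXN (edgeR adjusted p = 3.97e-08) and PRDX3 (edgeR adjusted p = 0.0475). PRDX2, PRDX5, TXNRD1 and GLRX did not, with edgeR adjusted p of 0.176, 0.0892, 0.327 and 0.0717. For GLRX the edgeR unadjusted p was 0.0101 before and 0.0121 after, so its test changed little while fewer genes passed in all. Single libraries also decided calls. Without replicate 3, PRDX2 had an edgeR adjusted p of 0.831, PRDX5 of 0.132 and TXNRD1 of 0.139. Without replicate 2, TXN had an edgeR adjusted p of 0.151, PRDX5 of 0.0633 and GLRX of 0.269. Without replicate 1, the edgeR adjusted p was 0.613 for TXNRD1 and 0.489 for GLRX.

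**Figure D3:**
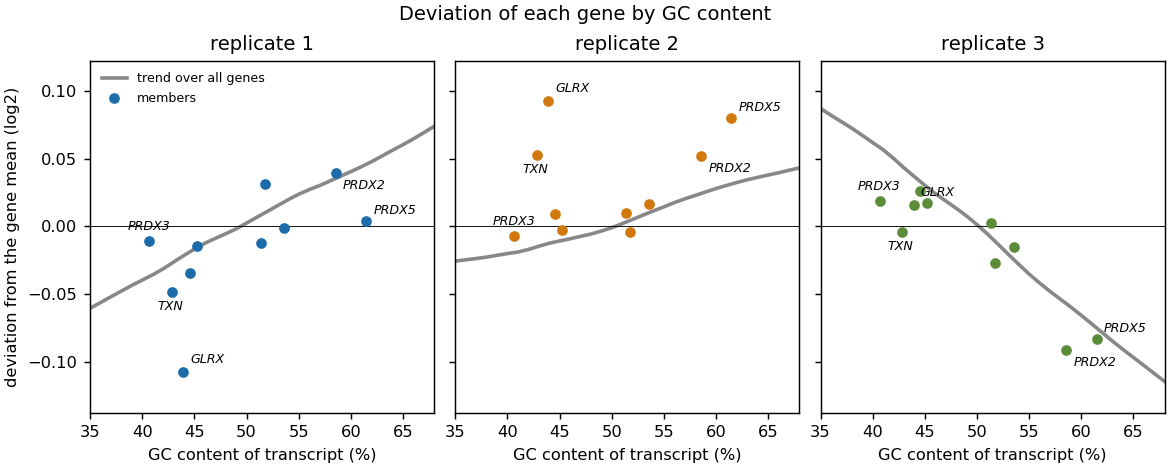
Deviation of the 10 genes from their means (log2) against the GC content of their transcripts (percent), one panel per library, with the trend over all genes as a grey line. The trend falls with GC content in replicate 3, where PRDX5 and PRDX2 lie at -0.08 and -0.09, and rises in replicates 1 and 2; TXN lies below it in replicates 1 and 3 and above it in replicate 2.

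The files count each transcript record of a gene separately. The 10 members had 25 records, 7 of them more than 1, and PRDX4, PRDX6 and SRXN1 a single one. For PRDX1, PRDX3, TXNRD1 and GLRX the records nearly coincided, the lowest holding 93.8%, 95.1%, 95.5% and 97.4% of the chosen record's count. Gaps were larger for PRDX2, TXN and PRDX5, the largest being that of PRDX2's second record. For the shorter forms of TXN and PRDX5, the exons they lack are shown because the counts differ by them. Each has a length divisible by 3, so skipping it keeps the reading frame.
TXN exon 3, chr9:110250820-110250879, minus strand: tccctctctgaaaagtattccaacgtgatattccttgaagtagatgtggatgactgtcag
PRDX5 exon 2, chr11:64319734-64319868, plus strand: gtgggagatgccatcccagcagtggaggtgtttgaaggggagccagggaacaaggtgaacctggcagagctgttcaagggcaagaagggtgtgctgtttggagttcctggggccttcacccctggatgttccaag
PRDX5 exon 3, chr11:64320661-64320792, plus strand: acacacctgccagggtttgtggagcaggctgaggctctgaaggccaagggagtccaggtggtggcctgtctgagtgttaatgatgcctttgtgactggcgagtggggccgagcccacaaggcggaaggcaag

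The TXN record without exon 3 held 16633, 22200 and 13676 counts, which was 21.9%, 21.7% and 22.3% fewer than the full record in replicates 1, 2 and 3 (22.0% ± 0.311). Exon 3 has 60 bases, 6.90% of the transcript, and no 100-base read fits inside it. Of all 100-base windows of the transcript, 20.6% touch it. The loss was thus close to the share of windows that reach into the exon.

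The PRDX5 record without exon 3 held 5497, 7144 and 4079 counts, 21.1%, 21.5% and 22.3% fewer than the full record (21.6% ± 0.608). That exon has 132 bases, and 4.16% of windows lie inside it while 29.1% touch it. The record that also lacks exon 2, which carries the codon of the peroxidatic cysteine, held 40.8%, 42.6% and 44.2% fewer (42.5% ± 1.72), where 21.2% of windows lie inside the missing 267 bases and 46.1% touch them. Both losses lay between the inside and touching shares. Of the PRDX5 records, the shortest varied most between libraries relative to the full one. PRDX2's second record held 6512, 8095 and 4784 counts, 45.5% of the first on average, in a near constant share of 45.2% to 45.7%. How often each form was made was not tested, since the counts give no reads unique to a form.

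**Figure D4:**
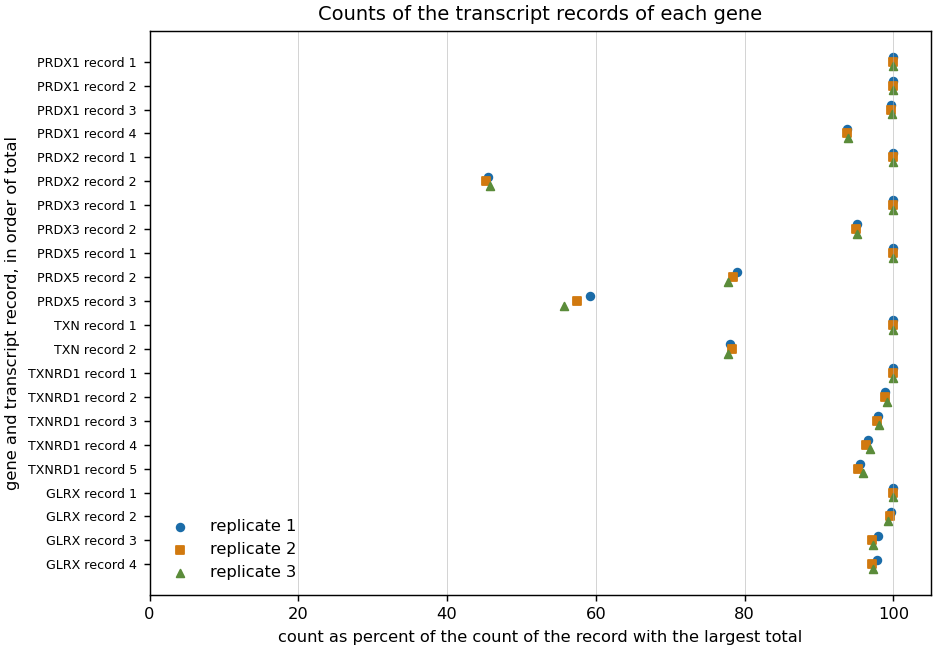
Count of each transcript record as a percent of the count of the gene's record with the largest total, in the 3 libraries, for the 7 members with more than 1 record. The second PRDX2 record lies near 45.5%, the PRDX5 records near 78.4% and 57.5%, and the second TXN record near 78.0%.

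The rest of the pathway was described by 9 lists of 78 other genes, of which 73 reached 1 CPM in each library. Between cultures 28 of the 75 tested passed (37.3%), beside 28.5% of all genes tested. Among all genes at or above the lowest member's level 47.9% passed, a level that some of the listed genes did not reach. With the GC trend taken out, TXNIP, TXNDC17, GPX1, GSR, SOD1, PGD, APEX1, CUL3, SQSTM1, P4HB, ERO1L and NOX5 still passed. RRM2, not among the 28, then passed as well (edgeR adjusted p = 3.73e-05). The rest of the 28 did not, such as GLRX3 (edgeR adjusted p = 0.156), GPX4 (0.859), TKT (0.962) and RRM1 (0.649). In that setting 14.4% of all genes tested passed, and 24.5% of those at or above the lowest member's level. None of the 28 passed once the coefficient of variation used for the members was allowed for. Calls named below are those of the test without these changes. In the other thioredoxin genes all 10 reached 1 CPM, with a median of 63.8 TPM, and 4 passed. TXNIP, which binds and inhibits thioredoxin, led with 340 ± 13.1 TPM (SD, n = 3; edgeR adjusted p = 2.94e-09), so that TXN stood 2.61 ± 0.0341 times above it. TXNDC5, an oxidoreductase of the endoplasmic reticulum, had 239 ± 2.09 TPM, and TXNRD3 was the lowest with 7.36 ± 0.704. Mitochondrial TXN2 had 54.8 ± 3.89 TPM and passed (edgeR adjusted p = 0.00579), as did TXNDC17 and TMX1. TXN stood 16.3 ± 1.58 times above TXN2, and TXNRD1 11.1 ± 0.880 times above its mitochondrial counterpart TXNRD2 (17.4 ± 1.12 TPM). PRDX3, which TXN2 serves in mitochondria, stood 7.83 ± 0.617 times above TXN2.

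Of 6 other glutaredoxins and sestrins all reached 1 CPM, with a median of 22.9 TPM. GLRX3 (190 ± 12.6 TPM) and GLRX5 (44.2 ± 1.65), both known for iron-sulfur handling, were the highest, SESN3 (1.09 ± 0.112) the lowest, and GLRX3 alone of the 6 passed (edgeR adjusted p = 0.000146). Of 10 genes of glutathione synthesis and its peroxidases 8 reached 1 CPM. GPX4, which reduces lipid peroxides, had 441 ± 21.9 TPM, GPX1 309 ± 25.4 and GSR, glutathione reductase, 45.4 ± 1.72. GPX7 was the lowest on 5, 2 and 2 counts. GPX4, GPX1, GSR and GCLC passed. PRDX1 stood 2.65 ± 0.260 times above GPX1, and TXNRD1 4.25 ± 0.216 times above GSR. All 5 superoxide dismutase and catalase genes reached 1 CPM: SOD1 had 263 ± 8.01 TPM, catalase (CAT) 89.8 ± 1.64 and mitochondrial SOD2 9.86 ± 0.205, and SOD1 and SOD3 passed. PRDX1 stood 9.10 ± 0.183 times above CAT.

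All 10 genes of NADPH supply reached 1 CPM, with a median of 109 TPM, and 7 passed, among them PGD, PGLS, TKT, TALDO1, NNT and MTHFD2. TKT (497 ± 14.5 TPM) and TALDO1 (247 ± 10.7), of the pentose phosphate pathway, were the highest and ME1 (15.2 ± 0.286) the lowest. All 10 client genes reached 1 CPM, led by RRM1 (280 ± 8.97 TPM), a subunit of ribonucleotide reductase, and APEX1 (225 ± 7.22), with MAP3K5 (14.7 ± 0.780) the lowest, and RRM1, APEX1 and MSRB3 passed. NFE2L2, which encodes the transcription factor NRF2, had 70.2 ± 3.41 TPM and its inhibitor KEAP1 75.2 ± 4.66. All 10 genes of that list reached 1 CPM, SQSTM1 (242 ± 9.42) and NFE2L1 (138 ± 0.697) being the highest and BACH1 (16.9 ± 1.25) the lowest. KEAP1, CUL3, BACH1 and SQSTM1 passed.

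Of 8 genes of selenoprotein synthesis, on which TXNRD1 depends, all reached 1 CPM, from 248 ± 2.74 TPM for SARS and 56.8 ± 0.176 for SEPHS1 to 6.54 ± 0.498 for SEPSECS. By edgeR 0 of the 8 passed after adjustment and 1 had an unadjusted p under 0.05. Of 9 oxidase and oxidative folding genes 6 reached 1 CPM and 3 passed, P4HB (794 ± 11.6 TPM), ERO1L (100.0 ± 6.76) and the NADPH oxidase NOX5 (61.8 ± 3.77). NOX4 was the lowest on 4, 0 and 0 counts.

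The line's own markers followed its label: VIM (4560 ± 160 TPM), KRT8 (747 ± 40.5), AXL (588 ± 41.7) and CD44 (169 ± 3.45) were high, while ESR1 had 3, 3 and 1 counts. Between cultures VIM, KRT8, AXL, CD44 and CDH1 (0.606 ± 0.230 TPM) passed. PRDX2 is abundant in red blood cells, and 0 of 6 red blood cell markers reached 1 CPM, their summed level being 0.0172, 0.497 and 0.547 TPM, with HBB and SLC4A1 at 0 counts. A count of 0 allows up to 0.0874, 0.0707 and 0.110 CPM in replicates 1, 2 and 3 (3 read pairs), counting error only. Of 5 leukocyte markers 2 reached 1 CPM, LYZ (14.0 ± 1.66 TPM) and CD14 (2.65), with sums of 15.1 to 19.1 TPM. Of 6 endothelial and fibroblast markers 2 reached 1 CPM, COL1A1 (6.38) and PECAM1 (1.06), with DCN at 0 counts and sums of 7.18 to 8.27 TPM. Between cultures PTPRC (0.514 ± 0.215 TPM) and COL1A1 passed, and the part of these markers in the members' spread was not tested. With the GC trend taken out, PTPRC did not pass (edgeR adjusted p = 0.0646) and COL1A1 did (edgeR adjusted p = 0.00742).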

How the data were processed

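The deposited values are raw whole-number counts per RefSeq transcript record, which the authors left without normalization; FastQC, TopHat2, Cufflinks and the build hg19 are named per the submitters' processing notes, without versions. The counting tool, strand setting and treatment of reads with several hits are not given in the sources used here. A gene's count is its record with the largest total, and copies of a record were summed. Records with no gene name after matching (619) held 0.952%, 0.959% and 0.944% of the record totals and were left out. Genes with exactly 2 counts outnumbered those with 1 (712 against 485 in replicate 1), as when both mates of a pair are counted, so the deviance was divided by 2.

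TPM used the length of the chosen record's transcript. Sequence, length and GC content came from GENCODE 29 on GRCh38, and no coordinate was converted from hg19. Pseudogene copies were found with blastn 2.17.0 at 85% identity. Variation between cultures was tested with edgeR 4.0.16 in R 4.3.3 (TMM, filterByExpr, Benjamini-Hochberg), tested on simulated data. Those data were drawn under the test's own model of counting noise, so they cannot show that it holds for these cultures. DESeq2 1.42.0 gave alternative size factors, and pandas 2.3.3, scipy 1.17.1 and matplotlib 3.10.9 (Python 3.11.15) the rest. The members and lists were chosen with earlier results of these data known. Named were all members and, of each list, the 2 highest, the lowest and every gene that passed, plus 11 set genes of the pathway. Some genes of the lists that fall under this rule are not reported here.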

Additional observations from a re-analysis of the deposited data

How the results depend on the processing

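No paired analysis was possible because the 3 libraries belong to 1 group. Of all genes 4117 passed for variation between cultures. This became 7653 with the deviance not divided, 2089 with GC offsets, 5 with a coefficient of variation of 0.05 allowed for, and 1298 to 3093 with 1 replicate left out, the lowest without replicate 3. DESeq2 size factors, totals without TMM, no filter and summed records stayed within 1.5 times. Of the members 5 passed, against 3 with no filter, 2 with GC offsets, 2 to 3 with 1 replicate left out (3 without replicate 1 and 2 without either of the others), and 0 with that coefficient allowed for (edgeR, 0 also at an unadjusted p under 0.05). The lost calls with no filter were GLRX (edgeR adjusted p = 0.0501) and TXNRD1 (0.0615). The median level of the 10 members was 283 TPM. It was 344 with the longest transcript, 292 with the shortened length, 353 with summed records and 209.7 in CPM, a different unit. No variation call changed direction, since the test has none, but the order of the members' levels did change with CPM, the other lengths and summed records, as given above. The cause of the other changes was not tested. Depth limits which differences can be seen: 47.9% of genes at or above the lowest member passed, against 28.5% of all.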
